A study of Homo sapiens with 6 samples.

Results

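Immunoglobulin heavy, kappa and lambda chain genes were examined in U2932 cells, an established human line of diffuse large B cell lymphoma. Rows of the authors' comparison were chosen by symbol as V, D, J or constant (C) genes of the 3 loci, and pseudogenes and orphons (copies outside the loci) were left out. Of 178 rows with a matching symbol, 60 pseudogenes, 4 orphons and 1 gene of another kind were removed. This left 113 genes of 34675 in the table, namely 82 V, 5 D, 12 J and 14 constant genes. The rule uses symbols and gene types, not measured values. Per the labels, 3 samples carried a short hairpin RNA against PRDM11, a PR domain gene, and 3 carried a scrambled hairpin. All 6 were U2932 cells infected with a hairpin construct and selected with puromycin for 3 days, and the RNA was sequenced. The comparison asks which genes change when PRDM11 is depleted.

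The authors' deposited table names its conditions only A and B, and no header or label assigns them to the knockdown or the control. Every ratio is therefore given as condition A over condition B, and log2(A/B) is its log2. Levels are in normalised reads, which are read counts divided by a size factor for each library. Whole reads of each library were recovered from the condition means for 110 of the 113 genes. Libraries are numbered 1 to 3 in each condition by falling size factor, and those numbers match no label. The recovered reads ranged from 21908874 to 33835864 per library. Whether each sample was a culture of its own is not stated in the labels, and p-values here then measure only the spread between libraries, which may be technical. PRDM11, the targeted gene, was recovered at 268, 272 and 323 normalised reads in the A libraries and at 565, 516 and 545 in the B libraries. Its log2(A/B) in the authors' deposited table was -0.91 (DESeq adjusted p = 1.76e-08).

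A B cell builds its antibody chains by joining 1 V gene to 1 J gene, with a D gene between them in heavy chains, and the joined exon is spliced to a constant gene. A clonal line therefore transcribes mostly the V and J genes that its founder cell joined, while unjoined V genes can give low germline transcripts. Without class switching the heavy chain uses IGHM, the mu constant gene, or IGHD, the delta constant gene. Switched chains use the gamma, alpha or epsilon genes. The line's B cell identity was checked on marker lists: 9 of 9 B cell markers and 11 of 11 plasma cell markers had a mean of at least 50 normalised reads. This was so for 4 of 15 T and NK cell markers, of which 12 had a row, 1 of 10 myeloid markers, and 2 of 10 epithelial and fibroblast markers.

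The reads of V genes can be assigned only as far as the genes differ, so sequences of IGHV4-39, the heavy chain V gene with the most reads, of 3 relatives in its family and of IGHV1-69 are shown first. They are reference sequences of GENCODE 29 transcripts (GRCh38), not those of U2932, whose joined genes may carry mutations. Each line holds 90 coding bases ending at the conserved tattactgt of framework 3, 5′ to 3′, and capitals mark bases that differ from IGHV4-39.
IGHV4-39: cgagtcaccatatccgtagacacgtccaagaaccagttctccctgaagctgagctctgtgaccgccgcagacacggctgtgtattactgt
IGHV4-61: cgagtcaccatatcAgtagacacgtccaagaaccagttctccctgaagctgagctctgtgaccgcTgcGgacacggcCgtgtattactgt
IGHV4-59: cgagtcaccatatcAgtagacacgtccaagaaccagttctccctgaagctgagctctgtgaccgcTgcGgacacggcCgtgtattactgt
IGHV4-28: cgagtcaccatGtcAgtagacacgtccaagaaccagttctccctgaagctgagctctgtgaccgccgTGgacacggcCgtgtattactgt
IGHV1-69: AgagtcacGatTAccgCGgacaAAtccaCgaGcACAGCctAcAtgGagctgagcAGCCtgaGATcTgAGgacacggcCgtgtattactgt
In this stretch IGHV4-61 and IGHV4-59 each differed from IGHV4-39 at 4 bases, IGHV4-28 at 5, and IGHV1-69, of another family, at 29. Over the whole coding sequence IGHV4-61 was 89.4% identical to IGHV4-39 and 97.5% identical to IGHV4-59, so the split of reads within that pair is uncertain.

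The 3 kappa V genes with the highest levels all belong to family 3. Their last 90 coding bases are shown in the same way beside those of IGKV3D-20, with capitals where a gene differs from IGKV3-20.
IGKV3-20: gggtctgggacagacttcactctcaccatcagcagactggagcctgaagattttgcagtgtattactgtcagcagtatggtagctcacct
IGKV3-11: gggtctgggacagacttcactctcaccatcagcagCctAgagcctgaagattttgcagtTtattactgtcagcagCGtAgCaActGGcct
IGKV3-7: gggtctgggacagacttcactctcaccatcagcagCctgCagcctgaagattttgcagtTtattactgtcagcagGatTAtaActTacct
IGKV3D-20: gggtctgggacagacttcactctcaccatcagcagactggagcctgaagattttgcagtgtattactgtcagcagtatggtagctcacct
IGKV3-11 differed at 10 of these bases and IGKV3-7 at 8. IGKV3D-20, the copy of IGKV3-20 in the distal part of the locus, differed at 0. Over the whole coding sequence IGKV3D-20 was 98.6% identical to IGKV3-20, and IGKV3-11 and IGKV3-7 were 94.0% and 93.4% identical to it. IGKV3D-20 had means of 26.5 normalised reads in condition A against 21.7 in condition B of the authors' deposited table, and how reads common to both copies were counted is not given in the sources used here.

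J genes are short enough to print whole. Capitals mark the bases tgggg (heavy) or ttcgg (kappa) that open the conserved motif shared by J genes.
IGHJ4: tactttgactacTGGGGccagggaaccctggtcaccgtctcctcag
IGHJ3: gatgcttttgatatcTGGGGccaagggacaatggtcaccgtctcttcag
IGHJ5: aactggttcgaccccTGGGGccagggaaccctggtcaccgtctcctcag
IGHJ6: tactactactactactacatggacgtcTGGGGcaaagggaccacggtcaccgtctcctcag
IGKJ5: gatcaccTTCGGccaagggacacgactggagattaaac
IGKJ4: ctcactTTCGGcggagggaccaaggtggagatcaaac
IGKJ3: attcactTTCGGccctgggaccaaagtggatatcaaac
The heavy J genes differ most in the part before the motif, and IGHJ4 and IGHJ5 share the whole part after it.

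Among the 113 genes, 8 were higher in condition A at a DESeq adjusted p under 0.05 in the authors' deposited table and 0 were lower. Over all rows 0.966% were called higher, 1.57% lower and 2.54% either way. The shares were 1.88% higher and 3.09% lower at a mean of at least 10, and 2.18% and 3.86% at a mean of at least 50. The 8 were the V genes IGHV4-39, IGHV1-69, IGHV2-70, IGKV3-20, IGKV3-7 and IGLV6-57 and the J genes IGHJ4 and IGLJ1. None of the 14 constant genes passed the test, and none of the 5 D genes did. A mean of at least 10 was reached by 54 of the genes, and 26 had a mean under 1. Of the 54, 42 had a ratio above 0 and 12 below, with a median log2(A/B) of 0.46, while the median over all 17613 rows of that level was -0.0033. The 46 of them that were not called had 34 ratios above 0 and a median of 0.36. In bulk RNA, a change in the number of cells with a given rearrangement and a change in RNA per cell cannot be told apart.

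A second test was made with limma on the recovered reads of 51 of the genes. It called 14 higher and 1 lower, beside 4.03% of its rows higher and 5.5% lower. These 14 included the 6 of the 8 deposited calls that had recovered reads. Leaving out 1 library at a time gave 5 to 15 higher, with 5 when library 2 of condition A or library 3 of condition B was left out. IGKV3-7 was then not called, while IGHV1-69, IGLV6-57, IGHV2-70, IGHJ4 and IGLJ1 were called in each of these fits. The lower count ran from 0 to 4, with 4 when library 3 of condition A was left out. The shares of all rows called in these smaller fits are not given. Whether the counts moved with the calls over all rows is therefore not known.

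**Figure D1:**
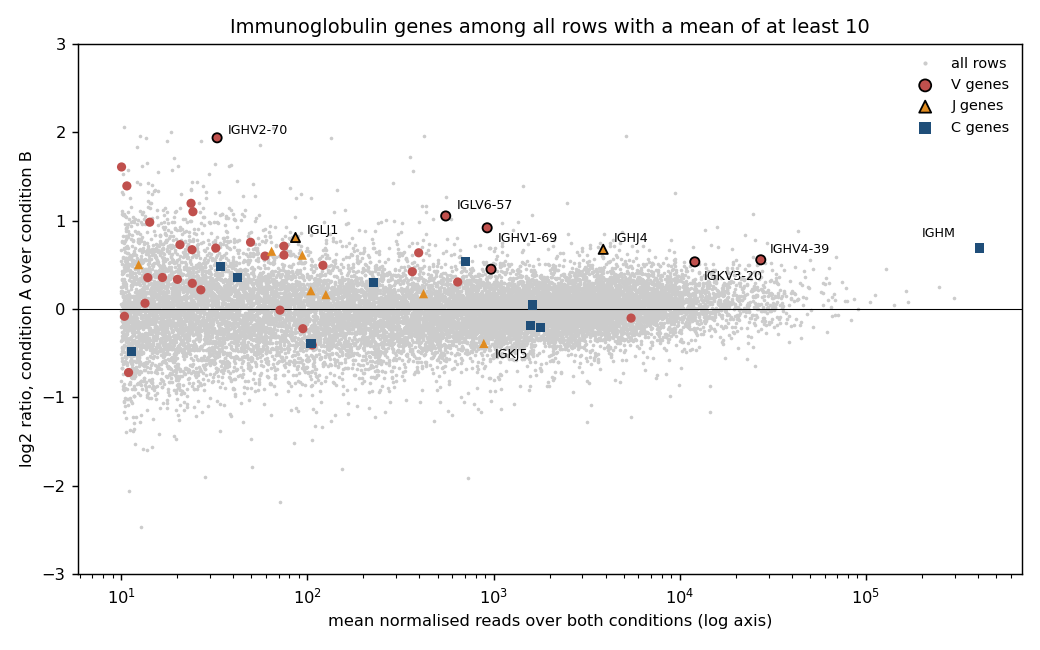
Log2 ratio of condition A over condition B (vertical axis) against the mean normalised reads over both conditions (horizontal log axis) for all rows with a mean of at least 10 in grey and for the immunoglobulin V, J and constant genes in colour. Black outlines mark genes called by DESeq, all 8 of which lie above 0, and IGHM lies at the far right with a log2(A/B) of 0.69 and no call.

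Separation between libraries gave a similar picture by segment type. Of 51 recovered genes with a mean of at least 10, 24 had all 3 libraries of condition A above all 3 of condition B, and 3 had them all below. The background over 17057 recovered rows was 15.1% above and 16.6% below. For V genes the count was 20 of 32 above and 2 below. Among J genes 4 of 9 lay above and 1 below. All 9 recovered constant genes of that level overlapped between conditions. Whether the V and constant genes differ in their response was not tested.

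In the heavy chain locus on chromosome 14, IGHV4-39 made up 92.9% of V gene normalised reads in condition A against 92.8% in condition B. Per coding length the shares were 92.5% and 92.4%. The gene lies at chr14:106877619-106878076 on hg19 (coding exons, as in all positions here), 556 kb from IGHM. Its means in the authors' deposited table were 32459 normalised reads in condition A against 22061 in condition B, giving a log2(A/B) of 0.56 with an approximate standard error of 0.12 (DESeq adjusted p = 0.000404). The libraries of condition B had 22215, 22665 and 21302 recovered normalised reads, within a narrow range. For condition A the mean allowed 28 sets of whole reads, so the reads of its libraries are not known, and whether the conditions overlap was not tested.

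IGHV1-69 was the heavy chain V gene with the second highest share of normalised reads, 3.46% in condition A against 2.69% in condition B. At chr14:107169931-107170367, it lies farther out in the locus, 849 kb from IGHM. GENCODE 29 also lists a duplicate, IGHV1-69D, which has no row of its own among the genes here, so the row may hold reads of either copy. Its libraries had 1138, 1290 and 1199 normalised reads in condition A and 688, 634 and 595 in condition B. Every library of condition A lay well above every library of condition B. The log2(A/B) in the authors' deposited table was 0.92 with a standard error of about 0.13 (DESeq adjusted p = 5.42e-10), the smallest adjusted p among the 113 genes.

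IGHV2-70, at chr14:107178820-107179262, had the highest ratio of the 8 called genes but a low level. GENCODE 29 lists its identifier as IGHV2-70D, a copy of IGHV2-70, so the row may hold reads of either copy. It had 43.8, 50.7 and 61.2 normalised reads in condition A and 19.2, 6.66 and 14.7 in condition B. The groups did not overlap, and the log2(A/B) in the authors' deposited table was 1.94 with a standard error of about 0.34 (DESeq adjusted p = 3.7e-06).

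The other heavy chain V genes with a mean of at least 50 were not called. IGHV4-61 had 730, 684 and 714 normalised reads in condition A against 575, 586 and 561 in condition B, so its libraries were separated. In the authors' deposited table its log2(A/B) was 0.31 (DESeq adjusted p = 0.30). IGHV4-59, nearly identical to it, had 139, 129 and 157 against 103, 86.6 and 113. IGHV3-53 went the other way, with 81.1, 99.5 and 93.7 in condition A and 129, 113 and 121 in condition B (log2(A/B) -0.41 in the authors' deposited table, DESeq p after adjustment = 0.409). IGHV4-28 and IGHV3-72 overlapped between conditions, and the authors' deposited table gave them log2(A/B) values of -0.22 and -0.01.

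The heavy V genes other than IGHV4-39 were also summed in each library, as a description with no test. The sums were 2438, 2506 and 2526 normalised reads in condition A and 1772, 1697 and 1684 in condition B. The log2(A/B) of these sums was 0.54, and most of the difference came from IGHV1-69.

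**Figure D2:**
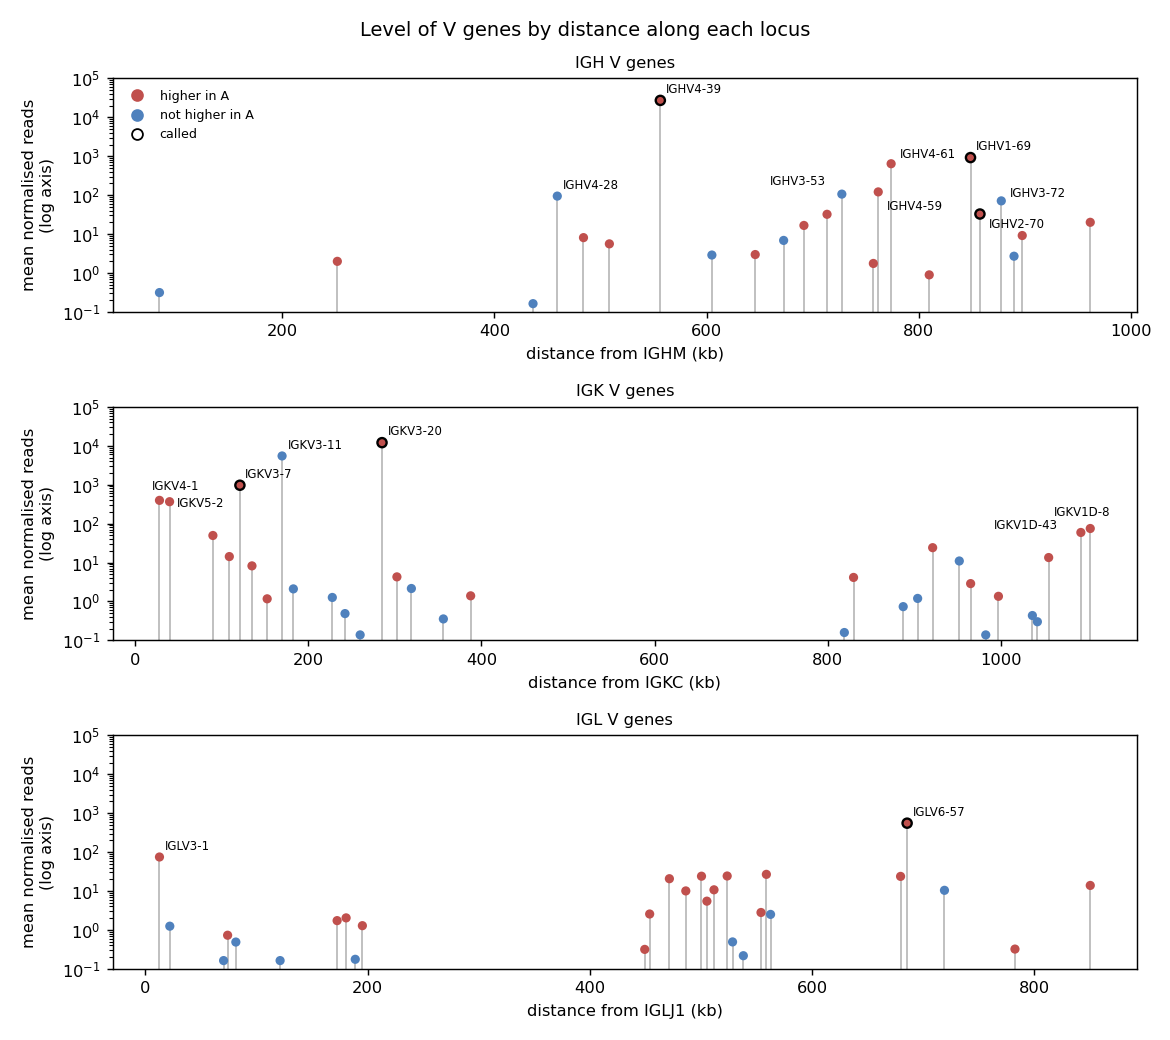
Mean normalised reads over both conditions (vertical log axis) of each V gene against its distance in kb from IGHM, IGKC or IGLJ1 (horizontal axis) on hg19. Red points had a higher mean in condition A, blue points did not, and black outlines mark calls: IGHV4-39 lies at 556 kb, the called IGHV1-69 and IGHV2-70 are neighbours at 849 and 858 kb, and the lambda locus has 1 called V gene, IGLV6-57.

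Kappa light chain V genes, on chromosome 2, were led by 2 genes, of which 1 was called. IGKV3-20, at chr2:89442057-89442591, held 65.1% of kappa V normalised reads in condition A against 57.3% in condition B. IGKV3-11, at chr2:89326668-89327181, held 24.1% and 33.0%. The IGKV3-20 means were 14259 and 9846 in the authors' deposited table, giving a log2(A/B) of 0.53 with a standard error of about 0.13 (DESeq adjusted p = 0.00243). Its libraries in condition B had 9901, 9921 and 9715 normalised reads. Condition A allowed 7 sets of reads, so its libraries are not known and an overlap was not tested.

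For IGKV3-11 the libraries had 4885, 4878 and 6097 normalised reads in condition A and 6328, 5251 and 5445 in condition B. The groups overlapped, and the log2(A/B) in the authors' deposited table was -0.10 with a standard error of about 0.11. Library 3 of condition A was the highest of its group. The difference between the ratios of the 2 genes was not tested.

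IGKV3-7, at chr2:89277987-89278503, was called higher. It had 1107, 1112 and 1140 normalised reads in condition A and 763, 858 and 836 in condition B, with no overlap. Its log2(A/B) in the authors' deposited table was 0.45 with a standard error of about 0.12 (DESeq adjusted p = 0.0179). IGKV4-1 and IGKV5-2, the 2 V genes closest to IGKC, were separated between conditions but not called. IGKV4-1 had 404, 464 and 578 normalised reads against 301, 315 and 315 (log2(A/B) 0.64 in the authors' deposited table, DESeq p after adjustment = 0.0565). IGKV5-2 had 389, 454 and 414 against 295, 341 and 302 (log2(A/B) 0.42 in the authors' deposited table, DESeq p after adjustment = 0.0958).

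At the distal end of the kappa locus, IGKV1D-8 and IGKV1D-43 were also higher in all 3 libraries of condition A. IGKV1D-8 had 78.6, 96.5 and 96.3 normalised reads against 67.8, 64.7 and 45.2. IGKV1D-43 had 63.7, 76.1 and 74.2 against 44.9, 44.7 and 51.5. Neither was called (DESeq adjusted p = 0.196 and 0.269 in the authors' deposited table). With IGKV3-20 left out, the summed kappa V reads overlapped between conditions, at 7079, 7258 and 8581 in condition A and 7923, 6998 and 7107 in condition B.

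Lambda V genes, on chromosome 22, had far fewer reads. IGLV6-57, at chr22:22550199-22550686, held 69.7% of lambda V normalised reads in condition A against 64.4% in condition B. Its libraries had 655, 741 and 845 normalised reads in condition A and 379, 334 and 366 in condition B, with no overlap. The log2(A/B) in the authors' deposited table was 1.05 with a standard error of about 0.15 (DESeq adjusted p = 6.41e-09).

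The lambda V genes as a whole had summed levels of 980, 1055 and 1179 normalised reads in condition A and 577, 544 and 556 in condition B. Of the 11 with a mean of at least 10, 10 had a ratio above 0, and 7 were separated with condition A higher. Over all rows of that level 49.5% had a ratio above 0, and 15.1% of recovered rows were separated in that direction. IGLV3-1, the V gene nearest to the J genes, had 75.3, 84.8 and 118 normalised reads against 58.7, 60.9 and 50.5 (log2(A/B) 0.71 in the authors' deposited table, DESeq p after adjustment = 0.25). IGLV1-51 overlapped, with 35.6, 27.3 and 23.4 against 30.2, 21.9 and 22.1. IGLV11-55, near IGLV6-57, had 29.8, 34.1 and 35.1 against 11, 23.8 and 8.41 (a DESeq adjusted p of 0.0585 by the authors' deposited table). IGLV1-47 had 37.2, 32.2 and 29.9 against 18.3, 14.3 and 13.7 (0.0708 by the authors' deposited table). It was 97.5% identical to IGLV1-44, so its reads are uncertain.

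**Figure D3:**
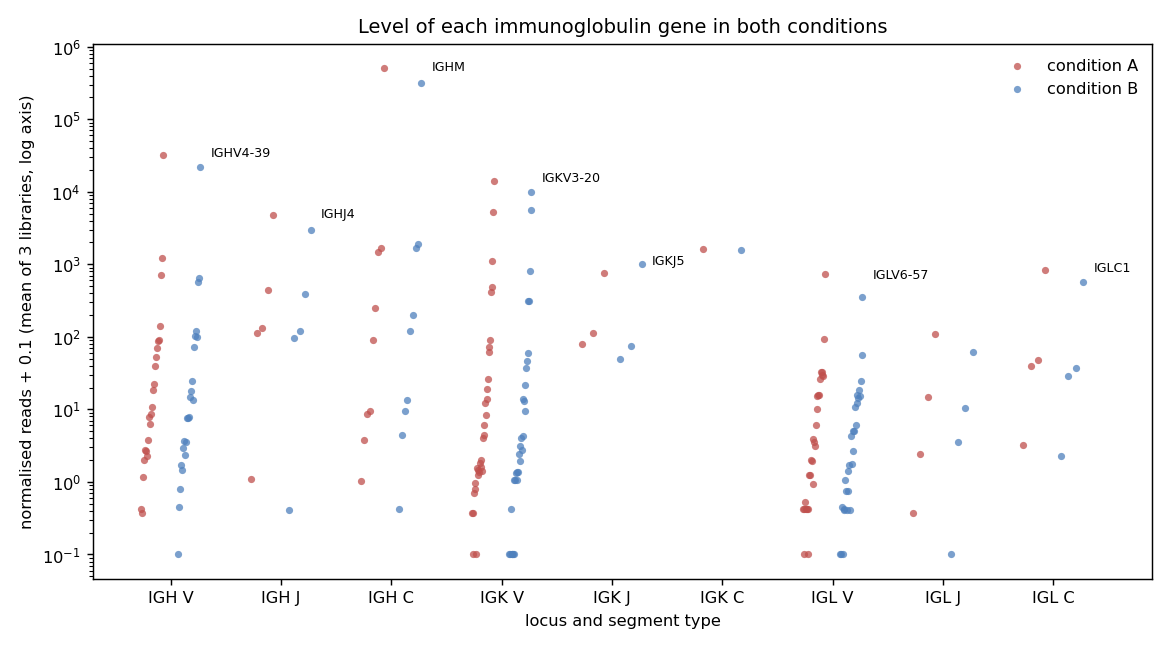
Mean normalised reads plus 0.1 (vertical log axis) of each gene in condition A (red) and condition B (blue), by locus and segment type, each point being 1 gene. The D genes are not drawn, and IGHV4-39, with 32459 in condition A, stands apart from the other heavy V genes, while in the kappa V column IGKV3-11 lies close below IGKV3-20.

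Heavy chain J genes were led by IGHJ4, whose sequence opens the J set above. At chr14:106330425-106330470, it held 87.4% of heavy J normalised reads in condition A against 83.0% in condition B. It had 4310, 4552 and 5466 normalised reads in condition A and 3294, 2938 and 2735 in condition B, with no overlap. The log2(A/B) in the authors' deposited table was 0.68 with a standard error of about 0.15 (DESeq adjusted p = 0.00125).

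The other heavy J genes had smaller ratios. IGHJ3 had 402, 453 and 482 normalised reads against 395, 407 and 383, which overlapped. IGHJ6 had 135, 135 and 129 against 92.6, 119 and 144, and IGHJ5 had 108, 120 and 108 against 101, 85.7 and 104. None of these 3 was called, and their log2(A/B) values in the authors' deposited table were 0.17, 0.16 and 0.21.

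In the kappa locus the leading J gene had a ratio below 0. IGKJ5, at chr2:89160080-89160117, held 80.0% of kappa J normalised reads in condition A against 89.0% in condition B. Its libraries had 847, 732 and 722 normalised reads in condition A and 1065, 970 and 980 in condition B, so every library of condition A was lower. In the authors' deposited table the log2(A/B) was -0.39 with a standard error of about 0.13 (DESeq adjusted p = 0.0875), which is not a call. When limma was run on the recovered reads, it called this gene lower (adjusted p = 0.0311). This call was lost in 4 of the 6 fits that left out 1 library, those without library 2 of condition A or any library of condition B (limma adjusted p from 0.0722 to 0.139). IGKJ4 and IGKJ3 had log2(A/B) values of 0.61 and 0.65 in the authors' deposited table and were not called. IGKJ4 overlapped, with 135, 129 and 76.8 normalised reads against 57.7, 68.5 and 96.8.

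IGLJ1, at chr22:23235872-23235995, was the lambda J gene with the most reads. It had 103, 109 and 117 normalised reads in condition A and 62.3, 64.7 and 61.0 in condition B, without overlap. The log2(A/B) in the authors' deposited table was 0.81 with a standard error of about 0.22 (DESeq adjusted p = 0.0114). IGLJ1 overlaps IGLL5, a surrogate light chain related gene that includes lambda J and C sequence, and reads of the 2 cannot be told apart with certainty. IGLL5 was itself called higher, with means of 6380 and 4556 normalised reads in the authors' deposited table (log2(A/B) 0.49, DESeq adjusted p = 0.00445). Its libraries had 5833, 6552 and 6756 against 4928, 4424 and 4317.

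D genes were barely detected as separate rows. IGHD5-24 was the only 1 of the 5 with a mean of at least 10, with means of 15.4 and 17.9 normalised reads in the authors' deposited table. IGHD4-23 had means of 1.90 and 2.60 there, and the other 3 had at most 2 reads in all libraries of a condition together.

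**Figure D4:**
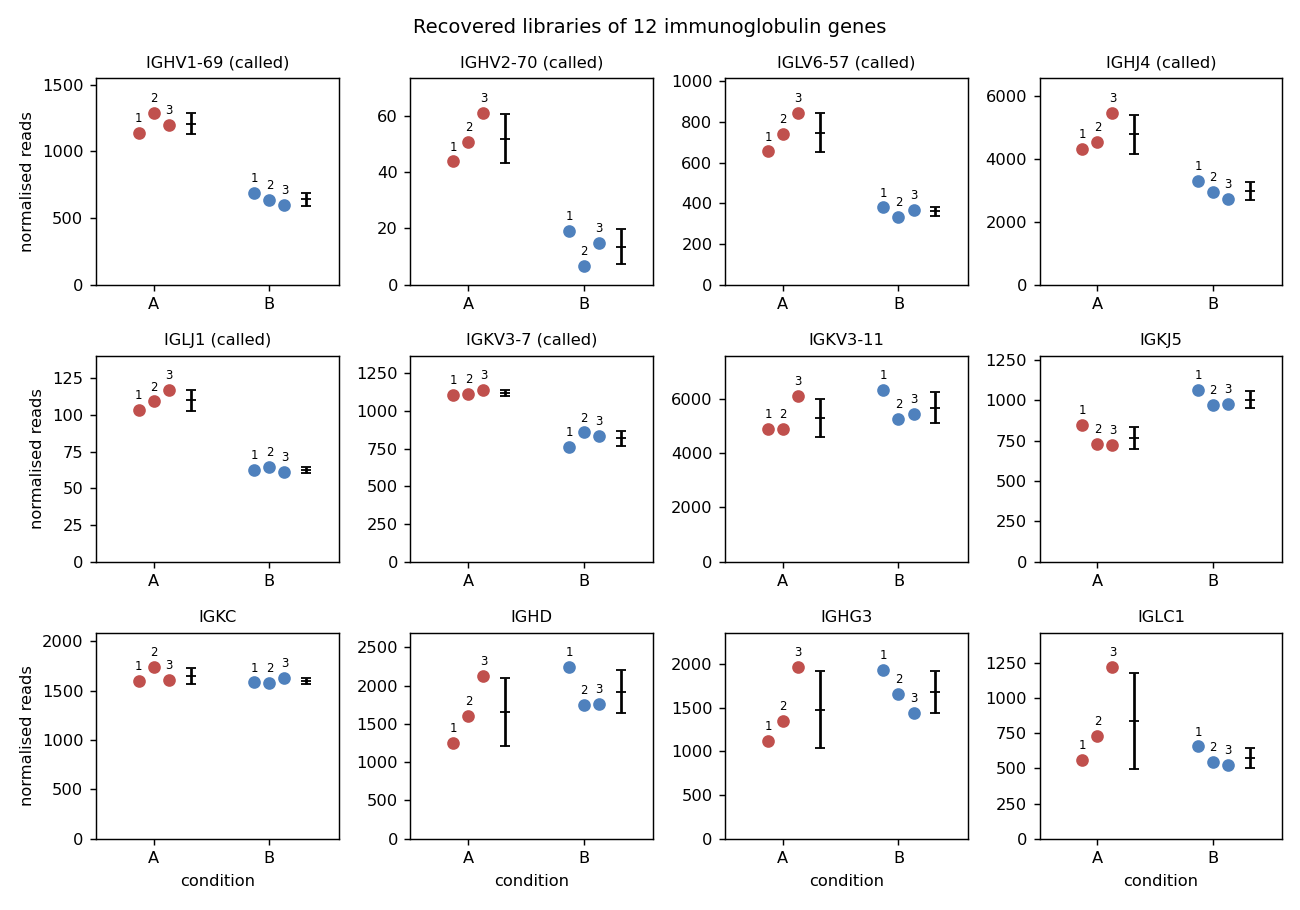
Recovered normalised reads (vertical axis, from 0) in libraries 1 to 3 of condition A (red) and condition B (blue) for 12 genes, with the mean and SD of the 3 libraries as black bars. The V and J genes marked as called do not overlap between conditions, while IGKC, IGHD, IGHG3 and IGLC1 do, and within condition A library 3 is the highest for IGHD, IGHG3 and IGLC1.

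IGHM had the highest mean of all rows in the table. Its means in the authors' deposited table were 503887 normalised reads in condition A against 312192 in condition B. This was 1.15% and 0.746% of the summed table, and 87.7% and 85.6% of the reads of the 113 genes. Per coding kilobase the levels were 370778 and 229722, against 86557 and 58828 for IGHV4-39 and 40973 and 28292 for IGKV3-20. The log2(A/B) of IGHM was 0.69 in the authors' deposited table, with a standard error of about 0.29 (DESeq adjusted p = 0.285), so it was not called. Of the constant genes it was the 1 with a DESeq p under 0.05 before adjustment. Its ratio was of the size of the IGHV4-39 and IGHJ4 ratios with a wider error. The reads of its libraries could not be recovered, so whether the libraries overlap is unknown.

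Of the other heavy constant genes, IGHD and IGHG3, a gamma gene, had the highest levels. IGHD had 1246, 1604 and 2125 normalised reads in condition A and 2243, 1750 and 1762 in condition B. For IGHG3 the libraries had 1122, 1349 and 1966 against 1935, 1661 and 1444. Both overlapped, and within condition A both were lowest in library 1 and highest in library 3. Their log2(A/B) values in the authors' deposited table were -0.21 and -0.18, each with a standard error of about 0.19.

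IGHA1 and IGHG1, the alpha and gamma genes with the next highest levels, had the same order in condition A. IGHA1 had 186, 216 and 347 normalised reads against 242, 178 and 187. IGHG1 had 62.9, 83.9 and 125 against 136, 113 and 107. IGHG4, IGHA2 and IGHG2 had means of 13.2 or less in both conditions of the authors' deposited table, and IGHE, the epsilon gene, had 3 reads in condition A against 1 in condition B over all libraries. Without IGHM the heavy constant genes summed to 2640, 3275 and 4586 normalised reads in condition A and 4577, 3734 and 3528 in condition B.

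Library 3 of condition A had the smallest size factor, 0.768, against 1.21 and 1.03 for the other libraries of its condition and 0.951 to 1.09 in condition B. When limma was run without it, IGHG1, IGHD and IGHG3 were called lower in condition A, with log2(A/B) values of -0.69, -0.43 and -0.44 (adjusted p = 0.0257, 0.0493 and 0.0374). With it none of the 3 was called (limma adjusted p = 0.237, 0.405 and 0.473). The part of this library's depth in these values was not tested.

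Among light chain constant genes, IGKC had 1600, 1741 and 1607 normalised reads in condition A and 1585, 1578 and 1629 in condition B. The groups overlapped, with a log2(A/B) of 0.05 in the authors' deposited table and a standard error of about 0.12. Per coding kilobase IGKC had 5154 and 4992, below the 40973 and 28292 of IGKV3-20. IGLC1 varied widely within condition A, with 558, 732 and 1222 normalised reads against 657, 549 and 524, and its log2(A/B) of 0.54 in the authors' deposited table had a standard error of about 0.51. IGLC2 had 40.5, 32.2 and 69.0 against 45.8, 32.4 and 32.6, IGLC3 had 31.4, 29.3 and 58.6 against 31.2, 32.4 and 22.1, and IGLC7 had means of 3.17 and 2.21 in the authors' deposited table. Within condition A, library 3 was again the highest for IGLC1, IGLC2 and IGLC3. The lambda constant genes are close copies, so the split of reads between them is uncertain.

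Partner proteins of the antibody chains were counted from a list of 10 genes. By DESeq, 3 of the 10 were called higher in the authors' deposited table and 0 lower. The shares were 0.966% and 1.57% over all rows, and 1.88% and 3.09% at a mean of at least 10. That level was reached by 9 of the 10. The 3 were IGLL5, CD79B, a signalling chain of the B cell receptor, and FCRLA, an intracellular Fc receptor-like protein. Reads of IGLL5 cannot be told from those of IGLJ1 with certainty, so its call may not be separate from the IGLJ1 call. CD79B had means of 20659 and 15441 (log2(A/B) 0.42) and FCRLA 27084 and 20557 (log2(A/B) 0.40) in the authors' deposited table. MZB1, a chaperone of secreted IgM, had a log2(A/B) of -0.34 by the authors' deposited table (DESeq adjusted p = 0.0595).

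Of 24 transcription factors of immunoglobulin genes, 4 were called higher in the authors' deposited table and 0 lower, beside 1.88% and 3.09% of rows with a mean of at least 10. PRDM1, the repressor that drives plasma cell differentiation, had means of 805 and 460 there (log2(A/B) 0.81, DESeq adjusted p = 1.12e-06). IRF4, which acts with PRDM1 in plasma cells, had a log2(A/B) of 0.41, and BACH2, a repressor of PRDM1, had 0.42 in the authors' deposited table. For MEF2C, a factor of B cell proliferation, the authors' deposited table gave 0.49. The median over the list was 0.27, against -0.0033 over all rows of that level. PRDM1 and IRF4 are also among the 11 plasma cell markers, of which 2 were called higher and 0 lower. The median log2(A/B) of those markers was -0.02, so the plasma cell list as a whole did not shift with these 2 genes.

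Of 20 folding and export genes, HERPUD1, of the endoplasmic reticulum's degradation machinery, was the 1 called, and the authors' deposited table gives it a log2(A/B) of 0.84 (DESeq adjusted p = 7.79e-10). Over all rows with a mean of at least 10, 1.88% were called higher and 3.09% lower. The median of the folding list was -0.04. None of 13 genes that process heavy chain messenger RNA was called by DESeq. Before adjustment 2 of them, PTBP1 and HNRNPF, which bind RNA, had a DESeq p under 0.05. The share of all rows under that p is not given, so this count has no background.

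The T cell receptor constant genes, which T cells splice to their joined receptor genes, were also compared. TRAC had means of 589 and 276 and was called higher in the authors' deposited table (log2(A/B) 1.10, DESeq adjusted p = 0.000424). TRBC2 had a log2(A/B) of 0.69 there and was not called (DESeq adjusted p = 0.141). The T and NK cell markers had unlike levels in the authors' deposited table. LCK, a kinase of T cell receptor signalling, had means of 3748 and 4280 normalised reads in the authors' deposited table. CD247, the zeta chain of that receptor, was called lower in condition A by DESeq (adjusted p = 0.000615), and the authors' deposited table gives it means of 1006 and 1493. By the authors' deposited table CD8A had 43.4 and 46.8, CD4 38.8 and 56.0, CD3E 14.1 and 7.82, CD3G 1.54 and 0.656, and CD5 0 and 0.317. The part of other cells in the TRAC values was not tested. The summed T and NK cell markers ranged from 6377 to 7086 normalised reads in condition A and from 6599 to 7606 in condition B. LCK was the largest part of these sums. Myeloid markers summed to 885 to 1094 in condition A and 1134 to 1300 in condition B. Nearly all of this was 1 gene, CD33, with means of 921 and 1135 in the authors' deposited table and no call (DESeq adjusted p = 0.174). Only 3 of the 9 B cell markers were recovered in every library, and these 3 summed to 10824 to 12695 against 10935 to 13305. Condition means of all 9 summed to 369607 in condition A against 299049 in condition B, with a median log2(A/B) of 0.09. The difference between these sums was not tested.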

How the data were processed

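RNA from 6 samples of U2932 cells was sequenced. The submitters' processing notes name build hg19 and the tools STAR, HTSeq 0.5.4p5 and DESeq 1.14.0. What each tool did, which annotation was counted and whether strand was used is not given in the sources used here. Overlapping, antisense and near-identical genes are therefore uncertain.

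The deposited means of each condition are a signal, per the file headers: counts of reads scaled by the authors with size factors. Beside them the deposited table gives a fold ratio and its log2, and the p-value before and after adjustment. The deposited fold and log2 are of B over A and were turned. A deposited hg19 track gives coding intervals and a score, and only the intervals were used. There were 0 columns of values per sample left out.

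The planned test needed counts of each sample. Only the authors' comparison was in the files used here, so calls are those with a deposited adjusted p under 0.05. A standard error is the log2 ratio divided by the z of its p, an approximation. Means carry 15 digits, so whole reads were recovered by an integer search up to a mean of 40000. Above 1500, only libraries at 0.7 to 1.4 times the mean were accepted. Without this limit the other genes printed by library above that level still gave 1 set, while in condition A IGHV4-39 gave 28 and IGKV3-20 gave 7. On simulated lower means all 2849 and 2838 were right, and of 295 high means 44.7% were recovered in condition A, with 0 wrong. In all 34119 rows were recovered in both conditions. On them limma 3.58.1 in R 4.3.3 was fitted to log2(normalised reads + 1) for the 17057 rows with a mean of at least 10, with Benjamini-Hochberg adjustment. On simulated data of that size it found 91 of 100 genes changed 2-fold and 66 of 100 changed 1.5-fold, and called 8 unchanged rows. The simulation gave all rows 1 fixed spread (negative binomial size of 100). It does not measure how often a change is found in genes that vary more between libraries, such as IGLC1.

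Members and lists were chosen with earlier results of these data known. The text names called genes, all constant genes, the 3 highest V genes of each locus, members of highest mean up to 25, and up to 4 genes of smallest p of each list. IGKJ5, IGHJ3, IGHJ5, IGHJ6, IGKJ3, IGKJ4, IGKV4-1, IGKV5-2, IGKV1D-8, IGKV1D-43, IGKV3D-20, IGHV4-59, IGHV3-53, IGHV4-28, IGHV3-72, IGLV1-47, IGLV11-55, IGHD5-24 and IGHD4-23 were chosen after their values were seen. The list of recombination and mutation genes is not reported here. GENCODE 29 matched all but 3 members, which have means under 1 and were kept by symbol.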

Additional observations from a re-analysis of the deposited data

How the results depend on the processing

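No paired analysis was possible because the deposited means carry no replicate numbers of the labels. Of the 113 genes, 8 were higher and 0 lower in the deposited table. With limma and with pseudocounts of 0.5 and 4 the higher count was 14 each time. In the limma fit with a pseudocount of 1, the background was 4.03% of rows higher and 5.5% lower. The lower count was 1 when the deposited p was adjusted over rows with a mean of at least 10 or of at least 50, at an adjusted p under 0.1, and in limma with either pseudocount, with no filter on low means or with scaling by total recovered reads. The higher count was 12, 9, 12, 14, 11 and 11 in these. The share of all rows called is not given for these settings or for the fits that left out 1 library. Their counts are therefore not set against a background. Leaving out 1 library in limma gave 5 to 15 higher, with 5 without library 2 of condition A or library 3 of condition B, 15 without library 1 of condition A, and 0 to 4 lower, with 4 without library 3 of condition A. All 6 deposited calls that limma could test were called by it, and IGKV3-7 was lost without library 2 of condition A (adjusted p = 0.0662) or library 3 of condition B (0.0559). Near-zero log2 ratios changed sign over these fits: IGHA1 ranged from -0.0019 to 0.45, IGLC2 from -0.013 to 0.53, and IGHV3-72 from -0.072 to 0.022, with 0.0073 without library 1 of condition A.

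Sums without their most abundant member had log2 ratios of 0.18 for heavy J (0.60 with it), -0.17 for heavy constant (0.68), 0.057 for kappa V (0.35), 0.63 for kappa J (-0.24), 0.70 for lambda V (0.94) and 0.32 for lambda J (0.73). Per coding length the IGHV4-39 share was 92.5% (A) and 92.4% (B). Of the ratios of single genes under the alternatives, 390 kept their direction and side of the threshold, 59 passed it, 2 lost it and 4 changed sign. The search for promoter motifs was not run. Depth limited the 26 genes with a mean under 1, where no difference was detectable, and IGHM, IGHV4-39 and IGKV3-20 had no limma fit because the reads of their libraries were not recovered.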
